A study of Mus musculus with 72 samples.

Results

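The genes described here are 10 components of the complement system in mouse liver: C1ra, C1s1, C1s2, C4b, C3, Hc, C6, C8a, C8b and C9. They were taken as a given list of symbols and found in the count table by their Ensembl identifiers, 10 of 51912 genes in the table. All 10 passed the filter on low counts and stood among 19362 genes tested, C1s2 through its DBA/2J libraries alone. RNA was sequenced from the livers of male (M) and female (F) mice of 2 inbred strains, C57BL/6J and DBA/2J, fed diets labelled Control, Medium Protein and Low Protein. The diets were given from 10 weeks of age for 13 weeks at about 22 °C, and livers were taken at 23 weeks after a 16 h fast, which all groups share. The 72 libraries, 1 per animal by the codes in the labels, form 12 groups of 6: C57BL/6J M, C57BL/6J F, DBA/2J M and DBA/2J F on each diet. The labels name no allele, transgene or drug beyond strain and diet, and each inbred strain stands for 1 genome.

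Complement is a cascade of plasma proteins, made mostly by hepatocytes, that marks microbes and dying cells for removal. In the classical pathway the proteases C1r and C1s, bound to C1q, cleave C4 and C2, and the resulting enzyme cleaves C3, on which the lectin and alternative pathways also converge. C5, encoded by Hc, is cleaved next, and its larger fragment gathers C6, C7, C8 and C9 into the membrane attack complex, a pore in the target membrane. DBA/2J is a strain long known to lack C5 in its serum.

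Library totals lay between 26.9 and 38.4 M counts (median 32.4 M), and levels are CPM, read counts scaled to a common library total with the TMM factors of edgeR. Of 8 hepatocyte markers 7 were found, none of them at 0 in any library. Their summed level was 73488 to 105160.0 CPM in C57BL/6J M, 50658 to 97688 CPM in C57BL/6J F, 72343 to 101377 CPM in DBA/2J M and 70139 to 93626 CPM in DBA/2J F. In whole liver, fewer cells of a type and less RNA per cell cannot be told apart. In 4 libraries more than 5% of counts fell on ribosomal-like RNA: C57BL/6J M Control replicates 1 and 6, C57BL/6J M Medium Protein replicate 6 and DBA/2J M Control replicate 4. In 4 others Saa1, the acute phase protein serum amyloid A, was above 500 CPM: C57BL/6J M Control replicate 4, C57BL/6J M Low Protein replicate 3, C57BL/6J F Low Protein replicate 1 and DBA/2J M Medium Protein replicate 6. Results that turn on these libraries are given with and without them. Well-like codes in the labels run in the order of the groups, so their position cannot be told apart from strain, sex and diet. Where nothing else is said, a difference is a log2 fold change with its standard error (SE) from edgeR's quasi-likelihood test, Benjamini-Hochberg adjusted over 19362 genes, and a gene is called at an adjusted p below 0.05.

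In the GENCODE M21 annotation (GRCm38) several of these genes are neighbours. On chromosome 6 stand C1ra at chr6:124512405-124523443 (+ strand, ENSMUSG00000055172), C1s1 at chr6:124530345-124542359 (- strand, ENSMUSG00000038521) and C1s2 at chr6:124624625-124636085 (- strand, ENSMUSG00000079343), with C1rb, a copy of C1ra, between the last 2. On chromosome 17 lie C4b at chr17:34728380-34743882 (- strand, ENSMUSG00000073418) and C3 at chr17:57203970-57228136 (- strand, ENSMUSG00000024164). Hc is on chromosome 2, at chr2:34983331-35061438 (- strand, ENSMUSG00000026874). C8b at chr4:104766317-104804548 (+ strand, ENSMUSG00000029656) and C8a at chr4:104815679-104876398 (- strand, ENSMUSG00000035031) are next to each other on chromosome 4, and chromosome 15 holds C6 at chr15:4727175-4814967 (+ strand, ENSMUSG00000022181) and C9 at chr15:6445327-6498751 (+ strand, ENSMUSG00000022149). All 10 are annotated as protein coding.

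Per kilobase of exon, C3 was the most abundant of the 10 transcripts and C1s2 the least. Group means of C3, the central component, ran from 1277 to 2081 CPM per kb over the 12 groups, and those of C4b from 223 to 363 CPM per kb. C1s1 and C1ra, the proteases of the first complex, had 78.5 to 133 and 53.4 to 90.2 CPM per kb. Hc stood at 36.8 to 178 CPM per kb. Among the later terminal components C8a spanned 19.5 to 241 CPM per kb, C8b 17.7 to 136, C9 18.0 to 137 and C6 4.00 to 69.0 CPM per kb, so that each of these 4 covered a wider relative range than C3, C4b, C1ra or C1s1. The spread between the 6 animals of a group was smallest for C1ra, with a coefficient of variation of 2.43% to 12.2%, and reached 83.8% for C8a and 86.4% for C9, leaving aside C1s2, which C57BL/6J hardly expressed.

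**Figure D1:**
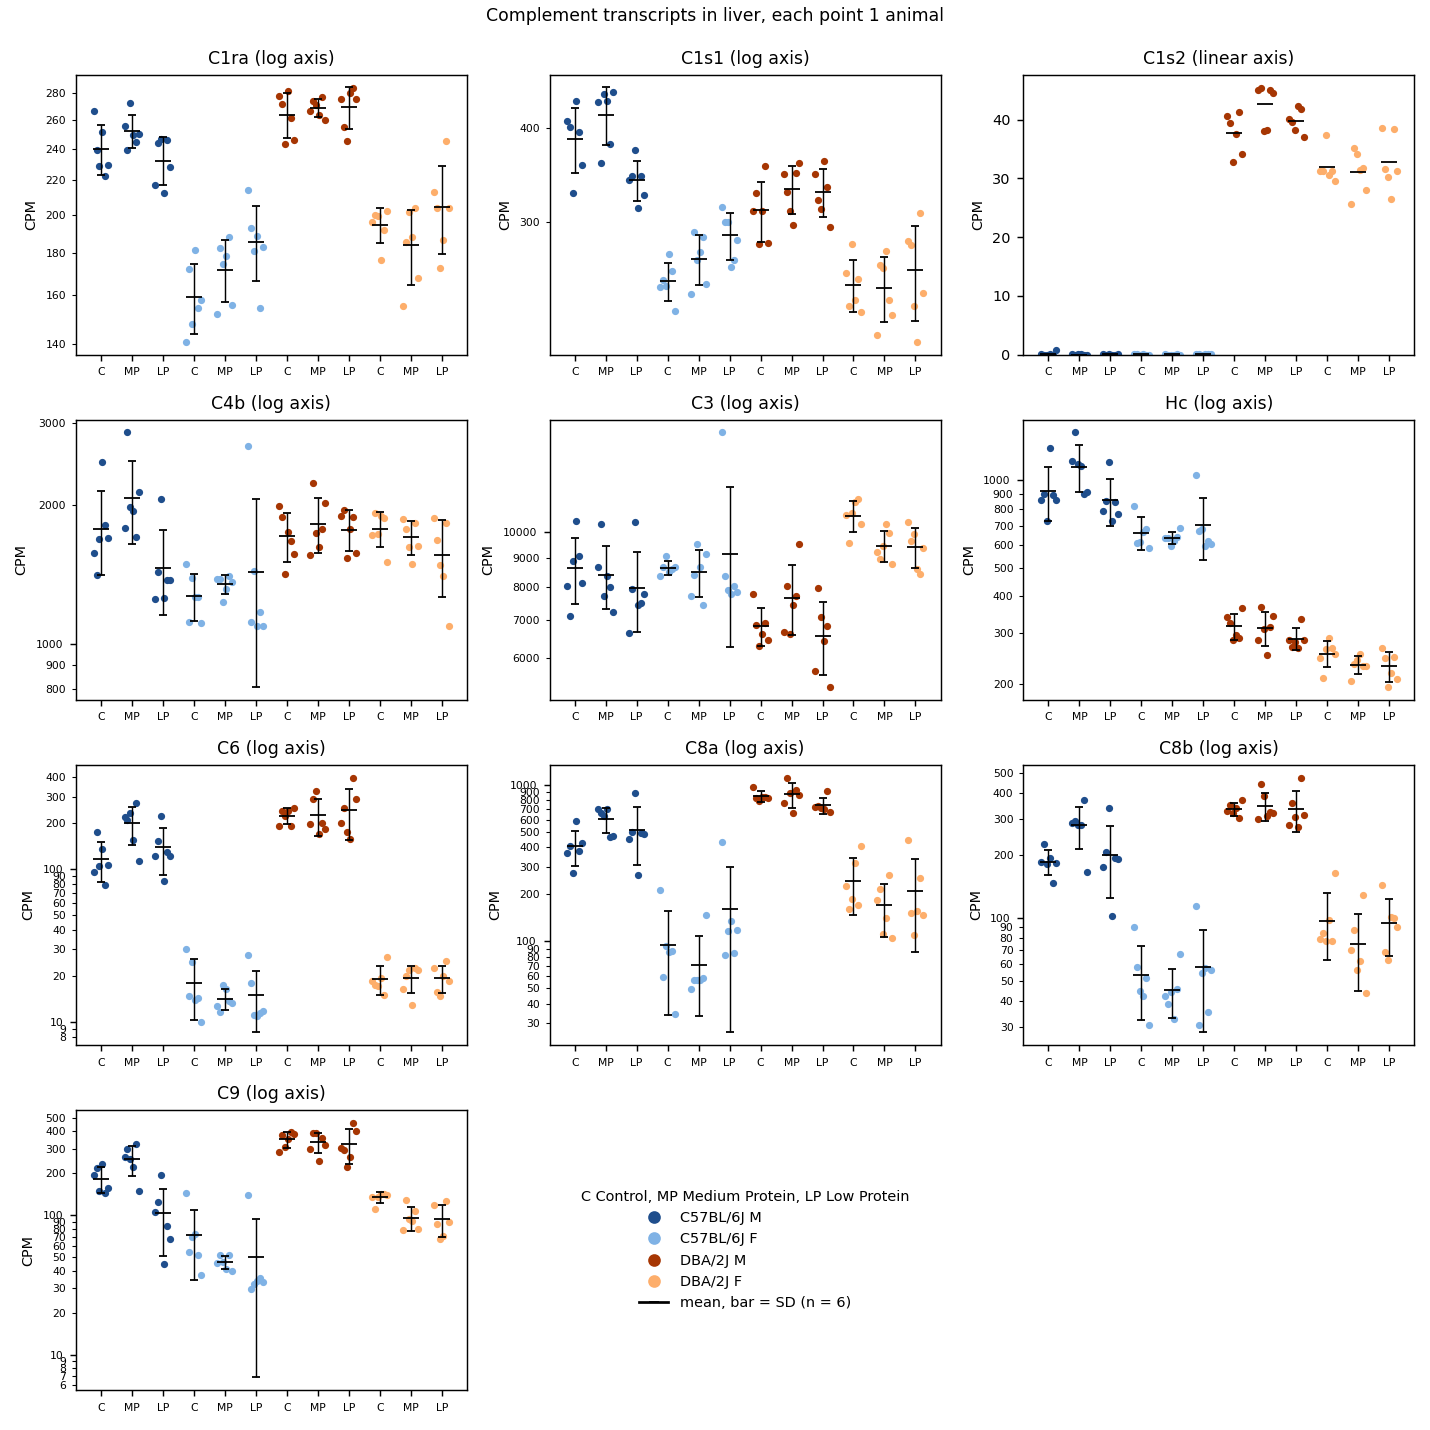
CPM (y axis, logarithmic but for C1s2) of the 10 complement transcripts in each animal, by strain and sex (colour) and diet (x axis), with 6 points per group, the group mean as a dash and the SD as a bar (no SD is drawn for C1s2). Hc is lower in every DBA/2J group, C6 is higher in every male group, and 1 C57BL/6J female on Low Protein stands above the rest of its group in every member but C1s2.

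Most of the 10 genes differed between the strains and between the sexes. Averaged over the 3 diets, DBA/2J differed from C57BL/6J in 9 of 10 members in males (6 higher, 3 lower) and in 8 of 10 in females (7 higher, 1 lower), counts that include C1s2, which had to differ since it passed the filter through DBA/2J. Of all genes tested 51.1% were called between the strains in males and 49.8% in females. Males differed from females in 8 of 10 members in C57BL/6J, all higher in males, and in 9 of 10 in DBA/2J (8 higher, 1 lower), against 42.2% and 39.2% of all genes. The strain difference depended on sex for 1 member, C3, against 20.2% of all genes. The median log2 fold change of the 10 was 0.39 and 0.30 between the strains and 0.51 and 0.42 between the sexes, where the median of all genes lay between -0.02 and -0.01. Scaling to library totals in place of TMM shifted every gene by -0.23 (log2) in the sex comparison of C57BL/6J, by -0.24 in that of DBA/2J, and by 0.26 in Low Protein against Control of C57BL/6J males. The direction of every called member was the same under both scalings.

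**Figure D2:**
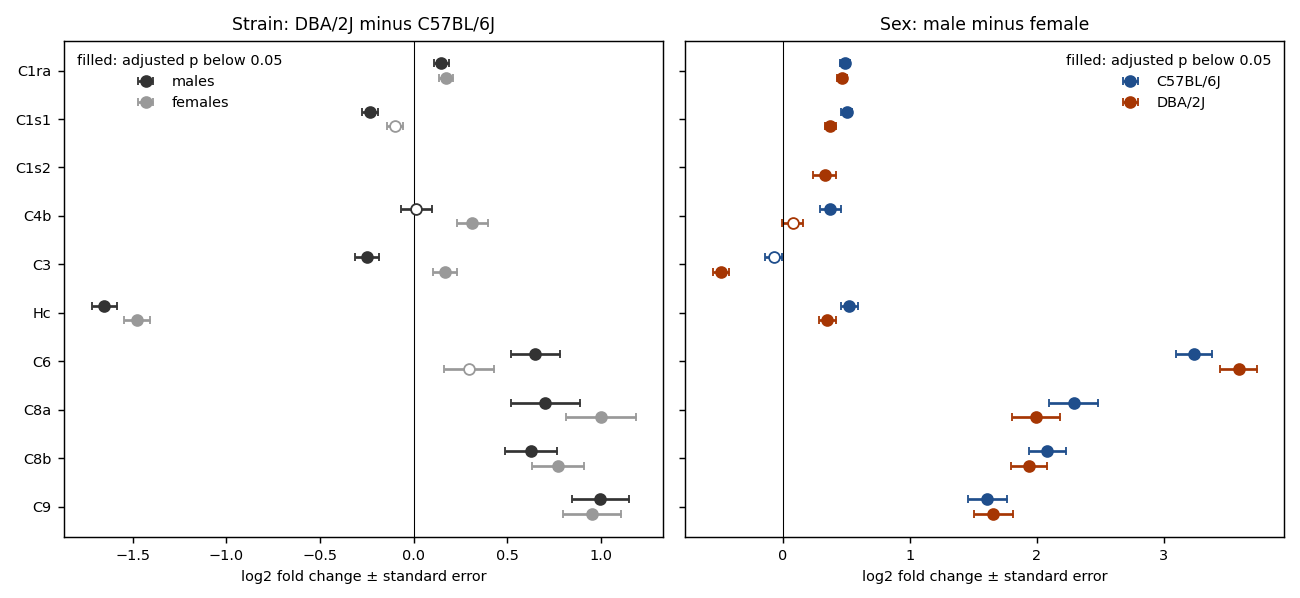
Log2 fold change with its standard error (x axis) of each member (y axis) between strains, averaged over diets, in males and females (left), and between sexes in each strain (right). Filled points are called, and C1s2 is left out where C57BL/6J hardly expressed it. Hc lies furthest to the left between strains, and C6, C8a, C8b and C9 furthest to the right between sexes.

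C1ra and C1s1, which encode the serine proteases C1r and C1s, were higher in males of both strains. The lowest, median and highest C1ra levels of 18 animals were 212, 244 and 272 CPM in C57BL/6J M and 141, 176 and 214 CPM in C57BL/6J F. In DBA/2J they were 243, 271 and 284 CPM in M and 155, 198 and 245 CPM in F. The ranges of the sexes overlapped only at their edges in both strains, with the highest female near the lowest male. In C57BL/6J that female was Low Protein replicate 1, high in Saa1, and the other females lay at or below 193 CPM. Male minus female was 0.49 ± 0.04 (adjusted p = 9.69e-17) in C57BL/6J and 0.46 ± 0.04 (adjusted p = 6.36e-16) in DBA/2J, and DBA/2J minus C57BL/6J was 0.15 ± 0.04 (adjusted p = 0.00107) in males and 0.17 ± 0.04 (adjusted p = 0.000144) in females. C1s1 stood at 314, 377 and 448 CPM in C57BL/6J M and 228, 267 and 315 CPM in C57BL/6J F. In DBA/2J it stood at 281, 324 and 362 CPM in M and 208, 247 and 308 CPM in F. The sex difference of C1s1 was 0.50 ± 0.04 (adjusted p = 2.04e-15) and 0.37 ± 0.04 (adjusted p = 1.09e-10), in the same order of strains. Between strains C1s1 was lower in DBA/2J males at -0.23 ± 0.04 (adjusted p = 6.25e-06), opposite in sign to C1ra, while females did not pass at -0.10 ± 0.04 (adjusted p = 0.0514). In females the C1s1 strain difference passed with DESeq2 (-0.10, 0.049) and limma-voom (-0.10, 0.0383). It also passed when 1 of 12 libraries was left out, which were C57BL/6J F Control 6, Medium Protein 1 and 6, Low Protein 4 and 5, and from DBA/2J F Control 3, Medium Protein 2, 3 and 4 and Low Protein 1, 2 and 5 (lowest adjusted p = 0.019). On the Control diet alone the C1ra strain difference in males did not pass, at 0.14 (adjusted p = 0.117).

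C1s2, a near-identical copy of C1s1 near it on chromosome 6, was read almost only in DBA/2J. The genes stand there in the order C1ra, C1s1, C1rb, C1s2. The sequences of each pair are alike, and short reads from the stretches they share can be divided between the copies by the quantification. Over their GENCODE M21 transcripts C1s1 and C1s2 are 95.9% identical and 24.3% of the 50-base stretches of C1s1 are also in C1s2, and for C1ra and C1rb the figures are 98.0% and 48.0%. The first 90 aligned bases of the coding sequences, from GENCODE M21 transcripts C1s1-203 (coding bases 19 to 108), C1s2-201, C1ra-201 and C1rb-201 (bases 1 to 90), are given here. They show 1 closely shared stretch and not the likeness over the whole transcripts, and capitals mark the bases that differ:
C1s1: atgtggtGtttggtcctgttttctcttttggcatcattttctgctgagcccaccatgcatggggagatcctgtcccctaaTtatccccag
C1s2: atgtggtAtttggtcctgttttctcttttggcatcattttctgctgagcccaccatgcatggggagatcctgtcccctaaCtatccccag
C1ra: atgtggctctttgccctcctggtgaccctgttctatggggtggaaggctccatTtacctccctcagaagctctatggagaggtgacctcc
C1rb: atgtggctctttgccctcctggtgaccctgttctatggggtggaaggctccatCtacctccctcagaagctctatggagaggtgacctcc
The C1s pair differs at 2 of these 90 bases and the C1r pair at 1, in the C57BL/6J-based reference GRCm38.

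In C57BL/6J the 18 male libraries held 23 C1s2 counts in all (95% Poisson interval 14.6 to 34.5) and the 18 female libraries 22 (13.8 to 33.3), with 9 and 8 libraries at 0. Each DBA/2J library held at least 828 C1s2 counts, and the levels were 32.8, 39.9 and 45.4 CPM in DBA/2J M and 25.6, 31.3 and 38.6 CPM in DBA/2J F. The mean was 681 times that of C57BL/6J in males (counting interval 454 to 1075) and 857 times in females (566 to 1368), with no overlap between the strains. Intervals cover counting error only, and the DBA/2J counts were taken as fixed in them. Of the 23 male counts, 13 came from C57BL/6J M Control replicate 6, the library richest in ribosomal-like RNA, and without it the male ratio was 2033 (1106 to 4240.4). Of the counts of both copies, C1s2 took 11.0% in DBA/2J M and 11.3% in DBA/2J F. With the counts of C1s1 and C1s2 summed, the strain difference in males was -0.06 (adjusted p = 0.219), so that the lower C1s1 of DBA/2J males no longer passed. C1rb, the copy of C1ra, was also higher in DBA/2J, at a lower level. It had 63 and 82 counts in C57BL/6J M and F and 12.4 and 9.65 CPM on average in DBA/2J M and F. These means were 102 (79.7 to 133) and 71.7 times (57.8 to 90.2) the C57BL/6J mean. Within DBA/2J, C1s2 was higher in males by 0.33 ± 0.09 (adjusted p = 0.00327), but not past the threshold on the Control diet alone, at 0.24 (adjusted p = 0.326), or with library totals, at 0.09 (adjusted p = 0.424). Whether reads of DBA/2J, whose sequence differs from the reference, were assigned to the right copy was not tested.

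C4b, which encodes the C4 protein that C1s cleaves, spanned a narrow range, while its near-identical copy C4a on the same chromosome differed by strain and sex. The C4b levels were 1253, 1698 and 2864 CPM in C57BL/6J M and 1095, 1291 and 2683 CPM in C57BL/6J F. In DBA/2J they were 1419, 1757 and 2222 CPM in M and 1093, 1724 and 1916 CPM in F. The 4 ranges overlapped. C4b was called higher in males of C57BL/6J, at 0.37 ± 0.08 (adjusted p = 0.000188), and did not pass in DBA/2J, at 0.08 ± 0.08 (adjusted p = 0.496). DBA/2J was higher in females, at 0.31 ± 0.08 (adjusted p = 0.00123), but not in males, at 0.01 ± 0.08 (adjusted p = 0.899), and the male minus the female strain difference was -0.30 ± 0.12 (adjusted p = 0.0635). That difference passed with limma-voom (-0.31, 0.0432) and without the 4 libraries high in Saa1 (-0.31, 0.00583). It also passed without C57BL/6J M Control replicate 2 (-0.32, 0.0474), C57BL/6J F Low Protein replicate 1 (-0.39, 0.002), DBA/2J M Medium Protein replicate 2 (-0.32, 0.0467) or DBA/2J F Low Protein replicate 6 (-0.33, 0.0368). With library totals the sex difference of C4b in C57BL/6J did not pass, at 0.13 (adjusted p = 0.182).

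C4a, known as the sex-limited protein and higher in males of many strains, is 96.1% identical to C4b over their transcripts, and 35.2% of the 50-base stretches of C4b are also in C4a. GENCODE M21 gives C4a no coding sequence. The first 90 bases of the C4b-201 coding sequence and the aligned bases 60 to 149 of C4a-207 differ at 1 base (in capitals):
C4b: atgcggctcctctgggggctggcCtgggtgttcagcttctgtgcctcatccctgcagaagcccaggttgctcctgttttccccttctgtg
C4a: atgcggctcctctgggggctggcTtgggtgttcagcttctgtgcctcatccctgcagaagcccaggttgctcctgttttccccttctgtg
C4a had lowest, median and highest levels of 1.96, 5.41 and 7.55 CPM in C57BL/6J F and 5.70, 20.6 and 145 CPM in C57BL/6J M. In DBA/2J they were 74.6, 101 and 122 CPM in DBA/2J F and 385, 579 and 846 CPM in DBA/2J M. The strains did not overlap in either sex. DBA/2J minus C57BL/6J was 4.37 ± 0.19 (adjusted p = 5.2e-31) in males and 4.35 ± 0.19 (adjusted p = 1.88e-30) in females, and male minus female was 2.50 ± 0.18 (adjusted p = 6.26e-19) in C57BL/6J and 2.53 ± 0.17 (adjusted p = 3.63e-20) in DBA/2J. C4a took 25.0% of the counts of both copies in DBA/2J M, 5.75% in DBA/2J F, 1.90% in C57BL/6J M and 0.369% in C57BL/6J F. With C4a and C4b counts summed, DBA/2J males were higher than C57BL/6J males at 0.40 (adjusted p = 3.78e-05) and males higher than females within DBA/2J at 0.41 (adjusted p = 6.31e-05), neither of which passed for C4b alone.

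**Figure D3:**
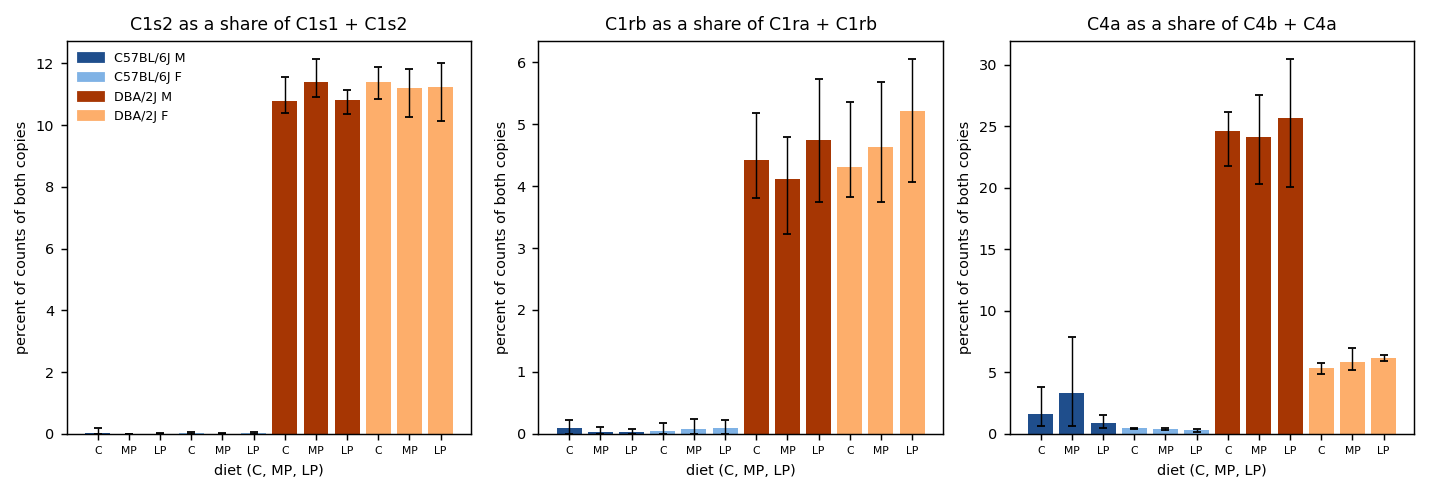
Share of the counts of both copies (y axis, percent) that fell on C1s2, C1rb and C4a, by strain and sex (colour) and diet (x axis). Bars are means over 6 animals and whiskers the lowest and highest animal. The C1s2 and C1rb shares are near 0 in C57BL/6J, and the C4a share is highest in DBA/2J males.

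C3, the component on which all activation pathways converge, was the only member whose strain difference passed the test for depending on sex. The levels were 6643, 8015 and 10491 CPM in C57BL/6J M and 7455, 8454 and 15014 CPM in C57BL/6J F. In DBA/2J they were 5333, 6854 and 9545 CPM in M and 8451, 9798 and 11449 CPM in F. In DBA/2J females lay higher, with the lowest female above the male median, and the ranges of the sexes overlapped in both strains. DBA/2J minus C57BL/6J was -0.25 ± 0.06 (adjusted p = 0.000834) in males and 0.17 ± 0.06 (adjusted p = 0.0257) in females, opposite in sign, and the male minus the female strain difference was -0.42 ± 0.09 (adjusted p = 0.000466). Male minus female was -0.49 ± 0.06 (adjusted p = 3.59e-09) in DBA/2J and -0.07 ± 0.06 (adjusted p = 0.371) in C57BL/6J, and with library totals the C57BL/6J difference passed as well, at -0.31 (adjusted p = 0.000168). Without the libraries high in Saa1 the interaction was -0.45 (adjusted p = 9.91e-07).

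Hc, which encodes C5, was lower in DBA/2J than in C57BL/6J in both sexes and on all diets, with no overlap between the strains. In C57BL/6J M the lowest, median and highest levels of 6 animals were 726, 874 and 1287 CPM on Control, 898, 1129 and 1459 CPM on Medium Protein and 727, 814 and 1156 CPM on Low Protein. C57BL/6J F had 585, 640.2 and 819 CPM on Control, 598, 634 and 685 CPM on Medium Protein and 596, 644 and 1042 CPM on Low Protein. The males lay mostly above the females, with overlap on Control and Low Protein. On Low Protein it came only from female replicate 1, high in Saa1, with the other females at or below 683 CPM. DBA/2J M had 285, 311 and 364 CPM on Control, 251, 311 and 369 CPM on Medium Protein and 267, 281 and 335 CPM on Low Protein. DBA/2J F had 209, 259 and 287 CPM on Control, 206, 233 and 254 CPM on Medium Protein and 196, 233 and 266 CPM on Low Protein. In the order of the 12 group means, all 6 C57BL/6J groups stood above all 6 DBA/2J groups, and that step was the only place where the ranges of neighbours did not overlap. DBA/2J minus C57BL/6J was -1.65 ± 0.07 (adjusted p = 5.61e-32) in males and -1.48 ± 0.07 (adjusted p = 1.88e-29) in females, a 3.14-fold and 2.78-fold lower level, and every DBA/2J library read the transcript at no less than 196 CPM. Males were higher than females in both strains, at 0.52 ± 0.07 (adjusted p = 1.4e-09) in C57BL/6J and 0.35 ± 0.07 (adjusted p = 1.76e-05) in DBA/2J, although the ranges overlapped, and with library totals the DBA/2J difference did not pass, at 0.11 (adjusted p = 0.207). The interaction of strain and sex did not pass, at -0.18 ± 0.09 (adjusted p = 0.189). The part that assigning DBA/2J reads to a reference may play in these levels was not tested.

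C6, C8a, C8b and C9, whose proteins join C5b in the membrane attack complex, were the members with the largest sex differences, higher in males of both strains. C6, which binds C5b first, had lowest, median and highest levels of 78.7, 133 and 271 CPM in C57BL/6J M and 9.94, 13.8 and 30.2 CPM in C57BL/6J F. In DBA/2J it had 157, 211 and 399.5 CPM in M and 12.9, 19.0 and 26.7 CPM in F. The sexes did not overlap in either strain, and males were 9.43-fold higher in C57BL/6J, 3.24 ± 0.14 (adjusted p = 1.87e-29) on the log2 scale, and 12.0-fold higher in DBA/2J, 3.59 ± 0.14 (adjusted p = 8.23e-32).

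C8a and C8b, the genes of the alpha and beta chains of C8, were next in the size of the sex difference, followed by C9, whose protein polymerises into the pore. C8a stood at 265, 482 and 897 CPM in C57BL/6J M and 34.6, 84.9 and 436 CPM in C57BL/6J F. It stood at 661, 827 and 1121 CPM in DBA/2J M and 105, 177 and 446 CPM in DBA/2J F. The sexes overlapped in C57BL/6J and not in DBA/2J, and male minus female was 2.29 ± 0.19 (adjusted p = 8.56e-16) in C57BL/6J and 1.99 ± 0.19 (adjusted p = 1.02e-13) in DBA/2J. The C57BL/6J overlap of C8a came only from F Low Protein replicate 1, high in Saa1, with the other females at or below 213 CPM. C8b stood at 102, 193 and 368 CPM in C57BL/6J M and 30.6, 44.9 and 114 CPM in C57BL/6J F, and at 274, 321 and 474 CPM in DBA/2J M and 43.5, 82.0 and 165 CPM in DBA/2J F. Its sexes overlapped in C57BL/6J only, with differences of 2.08 ± 0.14 (adjusted p = 1.13e-19) and 1.94 ± 0.14 (adjusted p = 1.41e-18), C57BL/6J first. The C8b overlap came only from the same female, with the other C57BL/6J females at or below 90.3 CPM. C9 stood at 45.0, 175 and 326 CPM in C57BL/6J M and 29.4, 46.0 and 144 CPM in C57BL/6J F, and at 222, 338 and 462 CPM in DBA/2J M and 68.1, 109 and 142 CPM in DBA/2J F. The sexes again overlapped in C57BL/6J only, and the differences were 1.61 ± 0.16 (adjusted p = 2.38e-13) and 1.66 ± 0.16 (adjusted p = 5.91e-14). The test of strain by sex passed for none of the 4 genes in edgeR, at 0.35, -0.30, -0.14 and 0.05 for C6, C8a, C8b and C9 (adjusted p = 0.185, 0.467, 0.674 and 0.922).

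C6, C8a, C8b and C9 were higher in DBA/2J than in C57BL/6J as well, C6 in males only by the test, and with estimates smaller than those between the sexes. The strain difference in males was 0.65 ± 0.13 (adjusted p = 2.36e-05) for C6, 0.70 ± 0.19 (adjusted p = 0.00103) for C8a, 0.63 ± 0.14 (adjusted p = 9.89e-05) for C8b and 1.00 ± 0.15 (adjusted p = 1.07e-07) for C9. In females it was 1.00 ± 0.19 (adjusted p = 5.97e-06) for C8a, 0.77 ± 0.14 (adjusted p = 3.53e-06) for C8b and 0.95 ± 0.15 (adjusted p = 3.65e-07) for C9. C6 in females did not pass, at 0.30 ± 0.13 (adjusted p = 0.0595), but did with DESeq2 (0.30, 0.0437), limma-voom (0.33, 0.0415), library totals (0.34, 0.0401), the compared groups only (0.30, 0.0453) and without the libraries high in Saa1 (0.38, 0.00883). It also passed when 1 of 8 libraries was left out: C57BL/6J F Control 1 and 3, Medium Protein 3 and Low Protein 1, and DBA/2J F Control 5, Medium Protein 4 and Low Protein 2 and 3 (lowest adjusted p = 0.011). The ranges of the strains overlapped for these genes in both sexes. Red blood cell markers differed with sex too. The 5 of them, none at 0 in any library, summed to 126 to 476 CPM in C57BL/6J M, 61.2 to 194 in C57BL/6J F, 138 to 325 in DBA/2J M and 44.5 to 146 CPM in DBA/2J F. Of them 5 of 5 and 4 of 5 were called higher in males of C57BL/6J and DBA/2J. Of 9 Kupffer cell and macrophage markers, none at 0 in any library, 8 were called lower in C57BL/6J males, and the sums were 122 to 302, 196 to 1125, 178 to 448 and 203 to 423 CPM in the same order. The 5 listed adipocyte markers summed to 90.0 to 2077, 72.4 to 729.8, 841 to 2772 and 73.7 to 605 CPM. Car3 was at 0 in no library, and Adipoq, Plin1, Cfd and Retn were at 0 in 27, 40, 37 and 58 of 72 libraries. With all but Car3 often at 0, this sum leans on Car3 and cannot be read as an amount of fat cells. The part of these markers in the sex differences of complement genes was not tested.

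The 250 bases before the RefSeq start of transcription of C6, C8a, C8b and C9 and of Hc are shown because the 4 had the largest sex differences of the members, and Hc was lower in DBA/2J. They come from the RefSeq promoter table (GRCm38.p6), which holds 9 of the 10 members, and lie at chr15:4726960-4727209 (+ strand) for C6, chr4:104876399-104876648 (- strand) for C8a, chr4:104766067-104766316 (+ strand) for C8b, chr15:6445096-6445345 (+ strand) for C9 and chr2:35061413-35061662 (- strand) for Hc. For C6, C9 and Hc the window runs past the GENCODE M21 start given above, since the annotations place the start at different bases. Capitals mark GTTAAT, the core of one side of the palindrome bound by hepatocyte nuclear factor 1, and CCAAT, the box bound by nuclear factor Y, on either strand:
C6: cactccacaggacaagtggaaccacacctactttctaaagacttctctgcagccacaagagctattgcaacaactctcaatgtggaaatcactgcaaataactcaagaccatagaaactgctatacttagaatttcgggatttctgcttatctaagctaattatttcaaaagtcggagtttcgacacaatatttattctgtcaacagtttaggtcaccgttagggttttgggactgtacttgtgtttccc
C8a: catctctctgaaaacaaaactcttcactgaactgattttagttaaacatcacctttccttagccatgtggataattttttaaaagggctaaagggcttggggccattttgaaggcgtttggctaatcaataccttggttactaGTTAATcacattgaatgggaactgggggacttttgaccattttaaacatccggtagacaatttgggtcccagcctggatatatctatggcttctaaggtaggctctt
C8b: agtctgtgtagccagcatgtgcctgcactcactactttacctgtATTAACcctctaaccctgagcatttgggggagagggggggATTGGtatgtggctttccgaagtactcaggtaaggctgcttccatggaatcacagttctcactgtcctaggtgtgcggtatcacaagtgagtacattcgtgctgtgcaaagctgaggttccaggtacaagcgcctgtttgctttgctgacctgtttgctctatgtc
C9: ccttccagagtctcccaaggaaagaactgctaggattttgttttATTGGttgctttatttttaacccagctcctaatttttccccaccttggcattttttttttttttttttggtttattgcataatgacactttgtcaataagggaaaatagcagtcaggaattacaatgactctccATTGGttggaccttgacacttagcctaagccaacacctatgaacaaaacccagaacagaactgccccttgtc
Hc: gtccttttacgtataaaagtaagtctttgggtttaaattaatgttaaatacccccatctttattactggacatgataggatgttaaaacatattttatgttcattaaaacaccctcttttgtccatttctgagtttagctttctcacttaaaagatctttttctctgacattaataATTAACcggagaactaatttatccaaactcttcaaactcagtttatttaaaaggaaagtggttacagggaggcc

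GTTAAT, read on both strands, was found in 5 of the 9 members with a promoter, Hc, C1ra, C1s2, C8a and C8b, and in 6.43% of 32851 promoter windows of the same length. CCAAT stood in 3 of 9, C1s2, C8b and C9, the last with 2 copies, and in 33.8% of all windows. TTCNNNGAA, the site of STAT factors, was in 1 member, C8a, against 7.02% of all windows, and TATAAA in 1, Hc, against 12.4%. TTGCNNAA, a loose form of the site of C/EBP factors, was in C3, C1s1 and C9 and in 9.56% of all windows. None of the 5 motifs was in the C6 window, no 2 of the marked matches overlap, and no motif was in all 4 male-high genes.

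Between diets, C9 in C57BL/6J males was lower on Low Protein than on both other diets. Low Protein against Control called 1 of 10 members in C57BL/6J males, C9, a share near the 9.78% of all genes. C9 stood at 146, 175 and 234 CPM on Control, 150.4, 257 and 326 CPM on Medium Protein and 45.0, 94.2 and 194 CPM on Low Protein. The Low Protein range overlapped both others, with 5 of 6 Low Protein animals below the Control median and 6 of 6 below the Medium Protein median. Low Protein minus Control was -0.83 ± 0.27 (adjusted p = 0.0344). That call was lost with library totals (-0.61, 0.0856), without the filter on low counts (-0.83, 0.0565), when fitted on the compared groups alone (-0.83, 0.0694) and without the libraries rich in ribosomal-like RNA (-0.87, 0.0558), and it was not lost without those high in Saa1 (-1.02, 0.00158). It was also lost without 1 of 7 libraries: Control replicate 1 (-0.82, 0.0546), Control replicate 2 (-0.77, 0.0711), Control replicate 4 (-0.75, 0.0807), Low Protein replicate 1 (-0.83, 0.051), Low Protein replicate 4 (-0.67, 0.103), Low Protein replicate 5 (-0.77, 0.0876) and Low Protein replicate 6 (-0.73, 0.0922). Red blood cell markers moved in the same comparison, with 4 of 5 called higher on Low Protein, and 2 of 7 hepatocyte markers were called lower, and their part in the result was not tested. Averaged over the 4 combinations of strain and sex, C9 was lower on Low Protein at -0.49 ± 0.13 (adjusted p = 0.0114), the only member called, against 8.01% of all genes. In that mean C3 passed without the libraries high in Saa1 (-0.12, 0.0499, against -0.07, 0.538 with all libraries). C1ra passed in it with library totals (0.15, 0.0103, against 0.07, 0.226 with TMM).

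Against Medium Protein, Low Protein came with lower C9, C4b, Hc and C1s1 in C57BL/6J males. These 4 of 10 members were called, all lower, against 6.53% of all genes, and the 2 comparisons share the Low Protein animals. C9 stood at -1.29 ± 0.27 (adjusted p = 0.000821). C4b, at 1699, 1959 and 2864 CPM on Medium Protein and 1253, 1374 and 2059 CPM on Low Protein, stood at -0.50 ± 0.14 (adjusted p = 0.0206), with 5 of 6 animals below the Medium Protein median. Hc stood at -0.38 ± 0.11 (adjusted p = 0.0271), also with 5 of 6 animals below that median. C1s1, at 359.9, 434 and 448 and 314, 344 and 374 CPM, stood at -0.29 ± 0.08 (adjusted p = 0.00912), with 6 of 6 below. The animal above the median for C4b and Hc was Low Protein replicate 3, which is high in Saa1. Only C9 passed with library totals (-1.12, 0.0035) and in the compared groups only (-1.28, 0.0353), where Hc (-0.21, 0.27 and -0.37, 0.173), C4b (-0.32, 0.143 and -0.49, 0.0989) and C1s1 (-0.11, 0.426 and -0.28, 0.0603) did not. Hc also missed the threshold without the filter on low counts (-0.38, 0.0666). Leaving out 1 library ended the call of Hc for Medium Protein replicate 2 (-0.29, 0.131), Low Protein replicate 1 (-0.36, 0.0638), Low Protein replicate 4 (-0.34, 0.082), Low Protein replicate 5 (-0.38, 0.0577) and Low Protein replicate 6 (-0.36, 0.0723). It ended that of C4b for Medium Protein replicate 2 (-0.39, 0.109), Low Protein replicate 1 (-0.46, 0.0553), Low Protein replicate 4 (-0.46, 0.0575) and Low Protein replicate 5 (-0.49, 0.054). Without the libraries high in Saa1, the values were -1.57, 6.46e-07 for C9, -0.63, 5.37e-05 for C4b, -0.49, 0.000293 for Hc and -0.32, 0.00498 for C1s1, and C6 passed as well (-0.72, 0.0344, against -0.53, 0.167 with all libraries). Without Low Protein replicate 3 alone C6 stood at -0.72, 0.0486. That replicate was the only library of these groups left out as high in Saa1. Saa1 stood at 140, 268 and 484 CPM on Medium Protein and 3.02, 9.53 and 762 CPM on Low Protein in C57BL/6J males. All Medium Protein animals stayed in, while the remaining Low Protein animals reached no more than 12.6 CPM of Saa1. The part of this Saa1 difference in the values was not tested.

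In C57BL/6J females Low Protein against Control called 0 members in edgeR (3 at an unadjusted p below 0.05, 1 by DESeq2 and 1 by limma-voom), against 3.25% of all genes. C1ra, at 141, 156 and 181 CPM on Control and 155, 186 and 214 CPM on Low Protein, came nearest, at 0.22 ± 0.07 (adjusted p = 0.0504), and was the 1 member that DESeq2 (0.22, 0.0294) and limma-voom (0.22, 0.0443) called. It passed in edgeR without Control replicate 2 (0.25, 0.0428), Control replicate 4 (0.26, 0.0304) and Low Protein replicate 5 (0.27, 0.0153). C9 in these females was 37.2, 62.3 and 144 CPM on Control and 29.4, 33.6 and 139.7 CPM on Low Protein, where the highest Low Protein animal is replicate 1, high in Saa1, and the other 5 lay at or below 35.2 CPM. C9 stood at -0.51 ± 0.27 (adjusted p = 0.331) with all libraries and at -1.13 (adjusted p = 0.00205) without that animal. C8a lay on the other side of 0, at 0.76 ± 0.32 (adjusted p = 0.19), with 1.17 (adjusted p = 0.0256) without Control replicate 1 and 0.17 (adjusted p = 0.836) without Low Protein replicate 1. Against Medium Protein, C8a was the 1 member called, against 1.94% of all genes, with 49.4, 56.7 and 148 CPM on Medium Protein and 81.4, 118 and 436 CPM on Low Protein, 1.19 ± 0.32 (adjusted p = 0.0339). The C8a difference was lower without Low Protein replicate 1, at 0.60 (adjusted p = 0.363). The call was also lost without Medium Protein replicates 1 (1.11, 0.0709), 2 (1.14, 0.0917), 3 (1.13, 0.0679), 4 (1.13, 0.0793) or 5 (1.14, 0.0917). It was lost too with no filter (1.18, 0.0527), with limma-voom (1.03, 0.0532) and in the compared groups only (1.19, 0.197).

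For C1s1 alone among the members, Low Protein and Control differed in another way in C57BL/6J males than in females. It stood at 328, 398 and 434 CPM on Control and 314, 344 and 374 CPM on Low Protein in males, and at 228, 249 and 272 and 262, 292 and 315 CPM in females. All 6 Low Protein males lay below the Control median and all 6 Low Protein females above theirs. Neither sex passed on its own (-0.18 ± 0.07 (adjusted p = 0.111) in males and 0.20 ± 0.08 (adjusted p = 0.125) in females), while their difference was -0.39 ± 0.11 (adjusted p = 0.0231), against 4.56% of all genes called. The difference was lost with library totals (-0.15, 0.447), with no filter (-0.38, 0.0752) and without the libraries high in Saa1 (-0.35, 0.0679), and leaving out 1 library at a time did not end it. C1ra had the same signs, -0.04 in males and 0.22 in females, with a difference of -0.27 ± 0.10 (adjusted p = 0.0929) that passed without Low Protein replicate 5 of the females (-0.31, 0.0406).

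In DBA/2J no comparison of Low Protein called a member in edgeR, and DESeq2 and limma-voom called 0 in each of them. Against Control, 0 were called in DBA/2J males (0 at an unadjusted p below 0.05), where 0.093% of all genes were called, and 0 in DBA/2J females (0 at an unadjusted p below 0.05), where 0.816% were. Against Medium Protein, 0 were called in DBA/2J males (1 at an unadjusted p below 0.05) and 0 in females (1 at an unadjusted p below 0.05), with 0% and 0.0413% of all genes. C9 in DBA/2J females was 111, 138 and 142 CPM on Control, 78.5, 91.9 and 129 CPM on Medium Protein and 68.1, 88.3 and 127 CPM on Low Protein. On Medium Protein and on Low Protein 6 of 6 animals lay below the Control median, and Low Protein minus Control was -0.52 ± 0.27 (adjusted p = 0.446). In DBA/2J males it was 284, 367 and 398 and 222, 299 and 462 CPM on Control and Low Protein, at -0.12 ± 0.26 (adjusted p = 0.964). The difference of the Low Protein effect on C9 between the strains did not pass, at 0.71 ± 0.37 (adjusted p = 0.333) in males and -0.01 ± 0.38 (adjusted p = 0.997) in females. The female value turned on single C57BL/6J animals, with 0.61 (adjusted p = 0.465) without Low Protein replicate 1 and -0.34 (adjusted p = 0.765) without Control replicate 1. Without the libraries high in Saa1 the values were 0.90 (adjusted p = 0.0926) in males and 0.61 (adjusted p = 0.427) in females. Over all members the test of the Low Protein effect between strains called 0 in males (2 at an unadjusted p below 0.05) and 0 in females (1 at an unadjusted p below 0.05), with 2.88% and 0.093% of all genes called. The test between the sexes of DBA/2J called 0 (0 at an unadjusted p below 0.05), with 0% of all genes, and DESeq2 and limma-voom called 0 in these 3 tests.

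Medium Protein against Control called no member in edgeR in any of the 4 combinations. In C57BL/6J males the count was 0 (4 at an unadjusted p below 0.05, 1 by DESeq2 and 0 by limma-voom), and 0.418% of all genes were called. It was 0 in C57BL/6J females (1 at an unadjusted p below 0.05) with 0% of all genes, 0 in DBA/2J males (0 at an unadjusted p below 0.05) with 0.00516% and 0 in DBA/2J females (0 at an unadjusted p below 0.05) with 0.00516%. The mean over the 4 combinations called 0 (0 at an unadjusted p below 0.05) with 0%, and DESeq2 and limma-voom called 0 in these 4 tests. C6 in C57BL/6J males came nearest, with 78.7, 106 and 175 CPM on Control and 114, 216 and 271 CPM on Medium Protein, 0.79 ± 0.23 (adjusted p = 0.0999). C6 passed with DESeq2 (0.79, 0.0474), and in edgeR without Control replicate 2 (0.94, 0.0459) or Medium Protein replicate 6 (0.91, 0.0297). Hc stood at 0.28 ± 0.11 (adjusted p = 0.348) in the same males, with 6 of 6 Medium Protein animals above the Control median, and at 0.41 (adjusted p = 0.0221) without the libraries high in Saa1. Of these groups that leaves out only Control replicate 4. Saa1 was 140 to 484 CPM in the Medium Protein males, all kept, and its Control median was 62.1 CPM with all animals. The part of Saa1 in this Hc value was not tested.

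**Figure D4:**
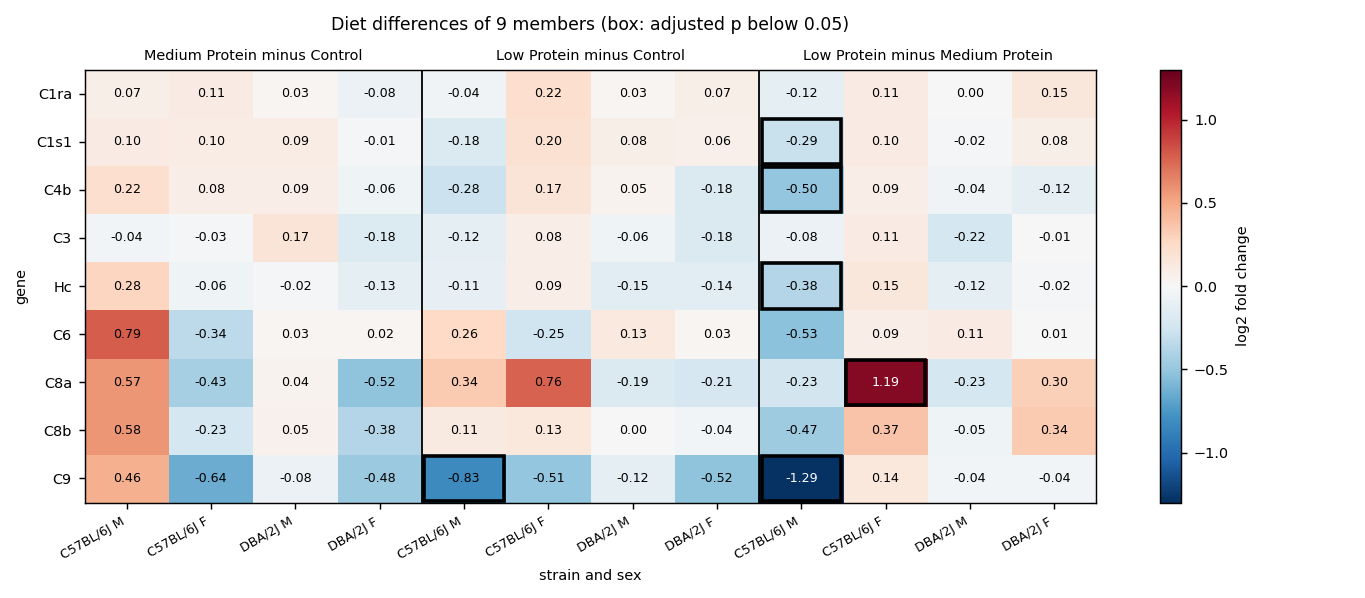
Log2 fold changes (colour and printed value) of 9 members (rows) for Medium Protein against Control, Low Protein against Control and Low Protein against Medium Protein in each strain and sex (columns), C1s2 left out. Black boxes mark called differences, which are in C57BL/6J and mostly in males.

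The authors' deposited table, which compares diets within each strain and sex, gives 7 of 120 member tests with an adjusted p below 0.05. Read as the diet lower in protein minus the other, its directions were the ones found here in 42 of 42 pairs where the absolute log2 fold change here was above 0.2. Both start from the same libraries, so this is no independent check. Below that cut some signs differed. For C9 in C57BL/6J females, Low Protein against Medium Protein was -0.13 in the authors' deposited table and 0.14 here. For C9 in C57BL/6J males the authors' deposited table gives -0.95 (adjusted p = 0.00788) for Low Protein against Control and -1.40 (0.000122) against Medium Protein. The authors' deposited table also gives Hc at -0.38 (0.0279), C4b at -0.50 (0.0136) and C1s1 at -0.28 (0.00929) for the latter, and in C57BL/6J females C1ra at 0.21 (0.0446) and C8a at 1.02 (0.0469), against Control and Medium Protein.

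The libraries high in Saa1 stood above their groups for several members. C1s1 and C3 were above all 5 other animals of the group in 4 of these 4 libraries, C4b, C8a, C9 and Hc in 3, and C1ra, C6 and C8b in 2. In the DBA/2J library, M Medium Protein replicate 6, only C1s1 and C3 were. There C4b, C8a, C9 and Hc were 1.16, 0.97, 0.89 and 1.10 times the median of the others. C57BL/6J F Low Protein replicate 1 had Saa1 at 626 CPM against 2.80 to 9.88 CPM in the other 5. In that animal C3 was 15014 CPM against 7789 to 8389.9 CPM and C4b 2683 CPM against 1095 to 1439 CPM. C8a was 436 CPM against 81.4 to 136 CPM, C9 139.7 CPM against 29.4 to 35.2 CPM and Hc 1042 CPM against 596 to 683 CPM. C6 was 27.2 CPM against 11.0 to 17.9 CPM and C8b 114 CPM against 30.6 to 57.5 CPM. C1ra and C1s1 were within 1.17 and 1.11 times the median of the others in all 4 libraries. These libraries were set apart by their Saa1 level, which was chosen after the data were seen.

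**Figure D5:**
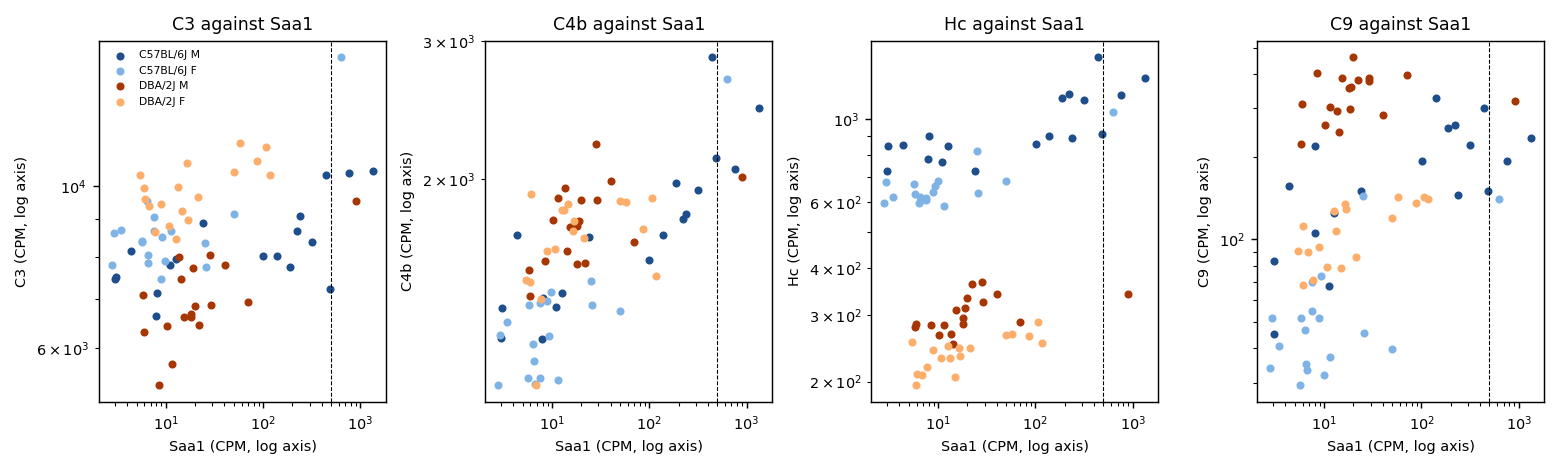
CPM of C3, C4b, Hc and C9 (y axes, logarithmic) against CPM of Saa1 (x axes, logarithmic) in 72 animals, coloured by strain and sex, with a dashed line at 500 CPM of Saa1. The 4 animals right of the line include the highest C3 value, and the Hc values of the strains stay apart at all Saa1 levels.

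Of 44 further complement genes in a list covering the pathways, regulators and receptors, 42 were tested. Between strains 14 were higher and 9 lower in DBA/2J males and 16 and 13 in females, with medians of 0.07 and -0.02, where 51.1% and 49.8% of all genes were called. Between sexes 17 were higher and 18 lower in C57BL/6J males and 11 and 5 in DBA/2J males, with medians of 0.05 and 0.05, against 42.2% and 39.2% of all genes. In the terminal pathway the other 2 genes were higher in males of both strains. C8g, the gamma chain of C8, stood at 0.48 ± 0.06 (adjusted p = 9.78e-11) in C57BL/6J and 0.40 ± 0.06 (adjusted p = 1.1e-08) in DBA/2J. C7, with strain and sex medians no higher than 1.68 CPM, stood at 0.77 ± 0.18 (adjusted p = 0.000432) and 0.63 ± 0.20 (adjusted p = 0.00747). All 7 terminal genes, the 5 members included, were thus called higher in males of both strains, against 42.2% and 39.2% of all genes called in either direction. The call of Hc in DBA/2J was lost with library totals, at 0.11 (adjusted p = 0.207). C7 was lower in DBA/2J (-0.92 ± 0.19 (adjusted p = 2.95e-05) in males, -0.77 ± 0.19 (adjusted p = 0.000591) in females), as Hc was, and C8g did not pass (-0.10, adjusted p = 0.126, and -0.03, 0.708). C2, which joins C4 in the classical convertase, was higher in males at 0.66 ± 0.07 (adjusted p = 3.9e-12) and 0.32 ± 0.07 (adjusted p = 0.000177), and in DBA/2J females at 0.44 ± 0.07 (adjusted p = 2.06e-07). C1qa, C1qb and C1qc, the subunits of C1q that macrophages make, were lower in C57BL/6J males (-0.43, -0.49 and -0.51, adjusted p = 0.00711, 0.00261 and 0.00248) beside 8 of 9 macrophage markers, whose part was not tested, and did not pass in DBA/2J (-0.04, -0.12 and 0.07). Their C57BL/6J medians were 16.2, 16.6 and 11.4 CPM in M and 18.8, 19.8 and 13.4 CPM in F. The highest animals stood at 23.2, 23.1 and 15.7 CPM in M and 46.0, 53.9 and 32.5 CPM in F.

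Genes of the lectin pathway and of regulators differed by strain and sex. The mannose-binding lectins Mbl1 and Mbl2, which recognise microbial sugars, were higher in DBA/2J males (0.31 ± 0.07 (adjusted p = 0.000139) and 0.21 ± 0.07 (adjusted p = 0.011)) and females (0.64 ± 0.07 (adjusted p = 8.64e-12) and 0.49 ± 0.07 (adjusted p = 3.1e-08)). Mbl1 was higher in males (0.75 and 0.43, adjusted p = 8.31e-14 and 1.04e-06) and Mbl2 in females (-0.19 and -0.47, 0.0235 and 1.5e-07). Of their proteases, Masp2 was lower in DBA/2J (-0.51 ± 0.03 (adjusted p = 3.93e-24) and -0.38 ± 0.03 (adjusted p = 6.53e-18)) and Masp1 higher (0.19 ± 0.05 (adjusted p = 0.00194) and 0.39 ± 0.05 (adjusted p = 5.12e-09)). Cfhr3 was higher in DBA/2J males at 1.46 ± 0.09 (adjusted p = 4.48e-22), and Cfhr2 was lower in DBA/2J females at -1.33 ± 0.05 (adjusted p = 4.22e-34). C5ar2, a receptor of the C5 fragment, was lower in DBA/2J females at -1.67 ± 0.12 (adjusted p = 2.82e-20). Cfb of the alternative pathway stood at -0.13 ± 0.05 (adjusted p = 0.039) between strains in males. Cfd, which fat cells express strongly, was at 0 in 37 of 72 libraries and reached 12.7 CPM in 1 C57BL/6J male on Medium Protein. Cfp, or properdin, was lower in C57BL/6J males at -1.06 ± 0.17 (adjusted p = 3.71e-07), and C4bp, which holds back C4b, higher in DBA/2J males at 0.63 ± 0.06 (adjusted p = 4.28e-13). Under library totals the called sex differences of Masp1, Cpn1, Masp2 and Cfb in C57BL/6J and of Cpn1 and Colec11 in DBA/2J would change sign, as would the difference of Masp2 for Low Protein in C57BL/6J males.

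On Low Protein against Control, 8 of the 42 were called in C57BL/6J males, all lower, and 1 was higher and 1 lower in C57BL/6J females, against 9.78% and 3.25% of all genes. Against Medium Protein, 13 were called in C57BL/6J males, all lower, and 1 was higher and 4 lower in C57BL/6J females, against 6.53% and 1.94% of all genes. Those called against Control in males included Mbl2 at -0.65 ± 0.12 (adjusted p = 0.000167), Masp1 at -0.55 ± 0.09 (adjusted p = 2.21e-05), C8g at -0.44 ± 0.10 (adjusted p = 0.00101) and Masp2 at -0.22 ± 0.05 (adjusted p = 0.00241). C4a was lower too, at -1.13 ± 0.29 (adjusted p = 0.00659). C4a stood at 11.5, 21.9 and 55.4 CPM on Control, 18.9, 54.3 and 145 CPM on Medium Protein and 5.70, 13.3 and 22.4 CPM on Low Protein in these males, and was higher on Medium Protein at 1.24 ± 0.29 (adjusted p = 0.0276). Over the 4 combinations Mbl2 was lower at -0.47 ± 0.06 (adjusted p = 1.83e-07) and Masp1 at -0.15 ± 0.05 (adjusted p = 0.0305).

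Lists of acute phase genes and of transcription factors and receptors that act on liver genes are given beside these results. Of 23 acute phase genes 6 were higher and 9 lower in DBA/2J males, 9 and 1 in DBA/2J females, 7 and 3 in C57BL/6J males against females and 2 and 10 in DBA/2J males against females. Of all genes 51.1%, 49.8%, 42.2% and 39.2% were called in these comparisons. Of 16 regulators 8 were higher and 3 lower in C57BL/6J males and 5 and 4 in DBA/2J males, against 42.2% and 39.2% of all genes. Cux2, a female-predominant repressor in liver, was lower in males at -2.77 ± 0.33 (adjusted p = 1.99e-10) and -5.80 ± 0.40 (adjusted p = 4.49e-20). Ghr, the growth hormone receptor, was higher at 0.62 ± 0.08 (adjusted p = 4.43e-09) and 0.36 ± 0.08 (adjusted p = 0.000248). Cux2 and Ghr were chosen from these lists after their values were seen, and their part in the complement differences was not tested.

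Genes whose 12 group means run most like those of a member were found by the root mean square difference of the centred log2 CPM over the 12 groups, a description without a test. Nearest to Hc were Hspb6 (0.20), Fez2 (0.20), Cfhr2 (0.20), Rplp0 (0.21) and Crybg3 (0.22), where Hc itself spanned 2.26 log2 units over the groups. Nearest to C6, which spanned 4.04, were Alas2 (0.37), Gstp1 (0.40), Omd (0.47), Slc15a5 (0.50) and Cyp7b1 (0.51). C9, which spanned 3.06, had Olfr45 (0.17), Ugt2b1 (0.22), Dpy19l3 (0.31), Car1 (0.32) and Mug1 (0.35), and C4b, which spanned 0.68, had Cpb2 (0.07), Vtn (0.09), Tex264 (0.09), Plxnb2 (0.09) and H2-Ke6 (0.09). Cfhr2 and Vtn, which hold back complement, are the complement genes among these 20.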

How the data were processed

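Liver RNA of 72 mice was sequenced from stranded polyA libraries, spread over 2 lanes that were merged per sample, per the labels' protocols. The authors deposited expected counts per gene, with RSEM, edgeR, limma and R 3.4.3 named in the submitters' processing notes. Aligner, genome build and annotation were not given in the sources used. Another strain of the title is not used here. The authors also deposited log2 fold changes for 17575 genes with p-values, raw and Benjamini-Hochberg adjusted, for each diet comparison, and an F score, which was not used.

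Expected counts, of which 11.6% were not whole, were rounded. Symbols came from the authors' deposited table or, where it gave none, from GENCODE M21. Together these named 51633 identifiers, and 279 had no symbol. Counts were fitted with edgeR 4.0.16 (limma 3.58.1, R 4.3.3): filterByExpr, TMM, 12 group means over all libraries, the quasi-likelihood test and Benjamini-Hochberg adjustment over 19362 genes in each of 23 comparisons. SE is the fold change over the root of the F statistic. Alternatives were library totals, no filter, DESeq2 1.42.0, limma-voom, the compared groups alone, the Control diet alone, summed copies, left-out replicates and left-out libraries. The script was tested on simulated data. All 10 members are named in all comparisons, and of other complement genes a fixed set of 15 plus, for each strain and sex comparison, the 3 with the largest called change, except items that are not reported here.

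Totals limit precision, and intervals cover counting error only. The members and lists were chosen with earlier results of these data known. The codes of animals recur across groups and were not taken to pair animals, and no batch is given in the labels beyond the well-like codes.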

Additional observations from a re-analysis of the deposited data

Results flagged for a closer look

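Within a group of 6 animals, an animal stood apart when its gap to the next one, divided by the range of the group, was above Dixon's critical value. That held for 18 of 120 pairs of a member and a group, where chance flags about 1 in 20 groups, or 6 of 120.

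Of the 18, 8 were animals high in Saa1. C57BL/6J F Low Protein replicate 1 stood high in C3 (15014 CPM), C4b (2683 CPM), Hc (1042 CPM), C8a (436 CPM) and C9 (139.7 CPM). C57BL/6J M Control replicate 4 stood high in Hc at 1287 CPM, and C57BL/6J M Low Protein replicate 3 in Hc at 1156 CPM and in C4b at 2059 CPM.

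Others were not high in Saa1. DBA/2J M Low Protein replicate 5 stood high in Hc at 335 CPM and in C8a at 918 CPM, and DBA/2J M Control replicate 1 in C8a at 974 CPM. C57BL/6J M Medium Protein replicate 6, rich in ribosomal-like RNA, stood low in C8b at 167 CPM, and C57BL/6J F Medium Protein replicate 6 high in C8a at 148 CPM. DBA/2J F Control held 3 such animals: replicate 6 high in C8b at 165 CPM, replicate 2 low in C9 at 111 CPM and replicate 3 high in C1s2 at 37.4 CPM. In C57BL/6J, where C1s2 was near 0, C57BL/6J M Control replicate 6 at 0.724 CPM and C57BL/6J F Control replicate 4 at 0.122 CPM stood high in that gene.

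Effects differed between groups by a test of the difference for 2 members in edgeR. The strain difference of C3 was lower in males than in females at -0.42 ± 0.09 (adjusted p = 0.000466), and the Low Protein difference of C1s1 in C57BL/6J was lower in males than in females at -0.39 ± 0.11 (adjusted p = 0.0231).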

How the results depend on the processing

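Of 230 pairs of a member and a comparison, 202 kept their side of the threshold under all alternatives run and 28 crossed it under at least 1. Of 43 called pairs 0 changed sign under any alternative, and of 187 pairs not called 85 changed sign under at least 1. The counts of members called moved by over 1.5 times only in diet comparisons of C57BL/6J, in the Low Protein mean and in strain by sex. With library totals, Low Protein against Control in C57BL/6J males called 0, Low Protein against Medium Protein in these males 1, the Low Protein mean 2 and Low Protein by sex in C57BL/6J 0. Without the filter on low counts, Low Protein against Control in C57BL/6J males called 0, Low Protein against Medium Protein in C57BL/6J females 0 and Low Protein by sex in C57BL/6J 0. With DESeq2, Low Protein against Control called 2 in C57BL/6J males and 1 in females, Medium Protein against Control in these males 1 and Low Protein by sex in C57BL/6J 2. With limma-voom, strain by sex called 2, Low Protein against Control in C57BL/6J females 1 and Low Protein against Medium Protein in these females 0. In the compared groups alone, Low Protein against Control in C57BL/6J males called 0 and Low Protein against Medium Protein 1 in these males and 0 in the females. Without the libraries rich in ribosomal-like RNA, Low Protein against Control in C57BL/6J males called 0. Without the libraries high in Saa1, an alternative chosen after seeing the data, strain by sex called 2, Low Protein against Control in C57BL/6J females 1, Medium Protein against Control in C57BL/6J males 1, Low Protein against Medium Protein in C57BL/6J females 0, the Low Protein mean 2 and Low Protein by sex in C57BL/6J 0. Leaving out 1 replicate at a time gave 0 to 2 calls for Low Protein against Control in C57BL/6J males and 0 to 1 in females, 0 to 1 for Medium Protein against Control in these males, 2 to 5 and 0 to 1 for Low Protein against Medium Protein in C57BL/6J males and females, 1 to 2 for Low Protein by sex in C57BL/6J, 1 to 2 for strain by sex and 8 to 10 for the strain in females. The cause of these changes was not tested, and the fits that leave libraries out also hold fewer samples. No paired analysis was possible because the replicate numbers only name animals in order of accession and pair no animals across groups. C57BL/6J held too few C1s2 and C1rb counts for differences within that strain to be read.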
